A study of Oryctolagus cuniculus with 4 samples.

Results

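The genes described here build the thin filament, the Z-disc and the M-band of striated muscle, together with the light chains and the binding proteins of myosin. They were picked out by gene symbol and not by a measured value: 40 of the 21139 genes in the count tables had a symbol of a troponin C, I or T, tropomyosin, skeletal α-actin, α-actinin, myosin light chain, myosin binding protein C, myozenin, myomesin, myotilin, nebulin, titin, LDB3, TCAP, tropomodulin, leiomodin, PDLIM protein, desmin, filamin C, capping protein, XIRP protein, SMPX, KLHL40 or KLHL41. MYL4, the embryonic and atrial light chain, was set aside. The list of symbols was drawn up with earlier results of these data known. Levels were read in 4 Visium sections of rabbit supraspinatus muscle, 1 per condition, and by the fiber type of the spots. In the Visium 3′ assay, a tissue section lies on a slide with printed capture spots, and each captured RNA molecule is counted once through its unique molecular identifier (UMI).

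The sections came from female New Zealand White rabbits, skeletally mature at 6 months, and from the posterior distal muscle belly of the supraspinatus, a rotator cuff muscle. All 4 muscles were snap frozen in cooled isopentane and kept in the cold. The fresh healthy section came from recently frozen tissue. The stored healthy section, the section taken 2 weeks after tenotomy (cutting of the supraspinatus tendon) and the section taken 16 weeks after tenotomy came from tissue kept for 6 years. By the numbers in the labels, the stored healthy and the 16-week sections were the right and left muscle of 1 animal. Each of the remaining sections had an animal of its own, so 3 animals stand behind the 4 sections. There were no replicates. No test was run, every difference is a difference between single sections or between groups of spots in a section, and the 95% intervals cover counting error only. A healthy muscle of an animal operated on the other side is the only stored control.

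In the sarcomere, the unit of contraction, myosin filaments pull on thin filaments of actin that are anchored in the Z-disc. Calcium binds the troponin complex on the thin filament, tropomyosin moves, and myosin can attach. Slow and fast fibers use different genes for many of these parts: slow fibers contain MYH7 myosin with the light chains MYL2 and MYL3 and the troponins TNNC1 and TNNI1, while fast fibers contain MYH1 or MYH4 myosin with MYL1, ACTN3 in the Z-disc and fast troponins. The supraspinatus is a mixed muscle. The sections thus allow a reading of which of these genes follow the myosin heavy chain from spot to spot, and of which differ after tenotomy between spots of the same myosin type.

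Of the 40 genes, 39 had at least 1 UMI, 29 had at least 200 UMIs in at least 1 section and 28 had at least 200 in every section. The exception was LMOD1, with 190 UMIs in the 16-week section. The Z-disc and titin-binding gene TCAP had no UMI in any of the 6970 spots. Reckoned with 3 UMIs, its feature captured at most 0.00239 to 0.00735 UMIs per 10000, depending on the section. This does not limit the level of TCAP RNA, since it was not checked whether the feature covers the 3′ end of the gene. The other 10 genes that stayed under 200 UMIs in each section were PDLIM4, MYL9, TMOD1, ACTN1, MYOM3, XIRP1, MYOZ3, CAPZA1, TMOD2 and MYBPC3. The fast troponins TNNC2, TNNI2 and TNNT3, the slow TNNT1, the fast regulatory light chain MYLPF, MYBPC2, ACTA1, TPM3 and TTN had no feature of that name and could not be counted. By role, 5 of 11 listed fast genes, 7 of 9 slow genes, 1 of 4 cardiac genes, 10 of 13 thin filament genes, 13 of 16 Z-disc and M-band genes and 4 of 14 smooth muscle and non-muscle genes had a feature. Most of what is said below on the fast program therefore rests on MYL1, ACTN3, MYOZ1 and TMOD4. Assay reads come from the 3′ end, so the level of a gene depends on how well its end is annotated, and levels are compared only within a gene.

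The sections held between 854 and 2440 spots and between 4079313 and 12536450 UMIs. The mitochondrial share of UMIs was 49.3% in fresh healthy and 49.2% in stored healthy muscle, and lower after tenotomy (33.8% at 2 weeks and 34.6% at 16 weeks). Levels are given as UMIs per 10000 UMIs of the section, mitochondrial UMIs included, unless another base is named. Barcodes were shared between sections (2931 distinct barcodes, 512 of them in all 4 sections), because the same slide positions carry the same barcodes. Markers of other cell types moved with the conditions. The fibroblast list stood at 13.2 per 10000 in fresh healthy muscle, 39.0 in stored healthy muscle, 126 at 2 weeks and 75.9 at 16 weeks, with all 5 of its measured genes detected in each. In the same order, the smooth muscle list stood at 2.00, 1.90, 3.70 and 4.98, the macrophage list at 0.351, 1.63, 1.55 and 3.73, the endothelial list at 1.24, 2.16, 2.73 and 2.88, the adipocyte list at 0.0242, 0.0191, 0.0711 and 0.814 with LEP at 0 in each, and the regenerating fiber list at 0.140, 0.958, 2.90 and 2.62. The part of these other cells in the results was not tested, and in a spot fewer muscle fibers and less RNA per fiber cannot be told apart.

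The 40 genes took 7.79% of all UMIs in fresh healthy muscle, 8.59% in stored healthy muscle, 9.64% at 2 weeks and 7.22% at 16 weeks. Their order depended on the base. Among UMIs that were not mitochondrial, they took 15.4%, 16.9%, 14.6% and 11.0%, and the stored healthy section stood first. Per UMI of the 3 adult myosin heavy chain genes MYH1, MYH4 and MYH7, there were 3.32, 4.64, 1.65 and 3.06 UMIs of the 40 genes, and the 2-week section stood last. Its myosin level was 585 per 10000, against 234, 185 and 236 in the fresh healthy, stored healthy and 16-week sections, and its MYH1 level was 468 against 82.3 in the stored healthy section. The share of MYH7 among the 3 myosins was 14.4% in fresh healthy muscle, 55.4% in stored healthy muscle, 13.2% at 2 weeks and 67.7% at 16 weeks. It is a share of transcripts and not of fibers.

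Spots were sorted by this share where they had at least 20 UMIs of the 3 myosins. A spot was called slow-rich where MYH7 made up at least 66.7% and fast-rich where it made up at most 33.3%, and mixed in between. MYH2, the heavy chain of type 2a fibers, had no feature of that name. The share, the classes and the level per myosin UMI therefore leave out this myosin. The fresh healthy section had 31 slow-rich and 1434 fast-rich spots, the stored healthy section had 801 and 806, and there were 23 and 742 at 2 weeks and 654 and 125 at 16 weeks. The share is continuous, and the classes are ranges of it: 137 of 1679 classed spots of the fresh healthy section, 425 of 2281 of the stored healthy section, 50 of 826 at 2 weeks and 218 of 1109 at 16 weeks lay within 5 percentage points of a limit. The classes were also unequal inside. The median MYH7 share of slow-rich spots was 72% in fresh healthy muscle and 95.8% in stored healthy muscle, and that of fast-rich spots was 7.36% and 19.8%. At 2 and 16 weeks the medians were 75.1% and 83.3% in slow-rich spots and 7.78% and 23.6% in fast-rich spots. Too few myosin UMIs for a class were found in 617 spots at 16 weeks, against 28 to 271 in the other sections.

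**Figure D1:**
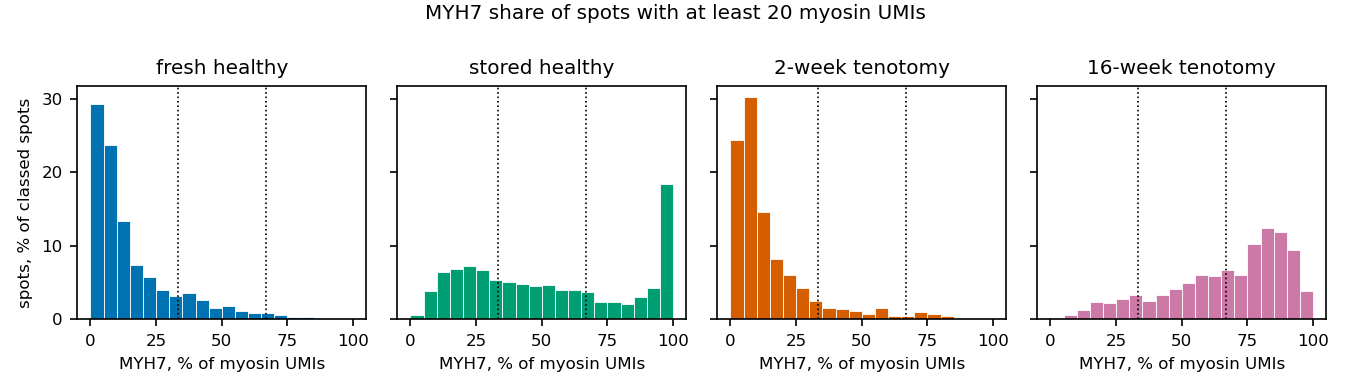
Distribution of the MYH7 share over the spots with at least 20 myosin UMIs in each section (x axis: MYH7 as a percentage of MYH1, MYH4 and MYH7 UMIs; y axis: percentage of these spots). Spots of the fresh healthy and 2-week sections gather at low shares (1434 of 1679 and 742 of 826 classed spots at or under 33.3%), while the stored healthy section spreads over the whole range and the 16-week section lies mostly above the middle.

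Between the sections, the slow genes MYL2, MYL3, TNNC1 and MYOZ2 were at their lowest where the MYH7 share was low, and the fast genes MYL1 and ACTN3 at their lowest where it was highest. MYL2 (ENSOCUG00000025586), the regulatory light chain of slow and ventricular myosin, stood at 57.7 (57.1 to 58.3) UMIs per 10000 in fresh healthy muscle, 252 (251 to 252) in stored healthy muscle, 65.4 (64.6 to 66.2) at 2 weeks and 179 (178 to 181) at 16 weeks. The stored healthy and 16-week sections were thus high and the others low, with intervals that did not overlap. MYL3 (ENSOCUG00000012392), the essential light chain of the same myosin, stood at 18.5, 51.3, 31.5 and 66.9 in that order. TNNC1 (ENSOCUG00000007983), the calcium-binding subunit of slow and cardiac troponin, stood at 21.9, 50.3, 31.4 and 74.7. In contrast to MYL2, both were highest at 16 weeks. MYOZ2, a calcineurin-binding Z-disc protein of slow and cardiac muscle, stood at 1.65, 3.91, 1.52 and 3.50 and followed the order of MYL2 except that the 2 low sections changed places.

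Not every gene with a slow name had this order. TNNI1 (ENSOCUG00000010424), the inhibitory troponin subunit assigned to slow fibers, stood at 70.6 in fresh healthy muscle, 37.8 in stored healthy muscle, 90.8 at 2 weeks and 47.7 at 16 weeks, with intervals that did not overlap. It was high in the 2 sections with a low MYH7 share and low in the others. MYBPC1, the slow myosin binding protein C, moved little, at 11.2, 14.0, 14.9 and 11.1. PDLIM1, an α-actinin-binding PDZ and LIM protein listed with the slow genes, stood at 1.23 in the fresh healthy section and between 2.78 and 3.64 in the stored ones.

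Among fast genes, MYL1 (ENSOCUG00000014182), the essential light chain of fast myosin, stood at 146, 103, 204 and 39.7 in the fresh healthy, stored healthy, 2-week and 16-week sections. The 16-week section was low against all the others. ACTN3 (ENSOCUG00000023317), the α-actinin of fast Z-discs, stood at 16.9, 6.06, 30.8 and 4.02. MYOZ1, the fast counterpart of MYOZ2, stood at 39.3, 21.1, 37.6 and 15.1. TMOD4, a tropomodulin that caps the pointed ends of skeletal thin filaments, stood at 4.59, 3.23, 5.60 and 3.13. Each of the 4 was lower in the stored healthy and the 16-week sections than in the fresh healthy and the 2-week sections.

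Of the thin filament genes, TPM2, the β-tropomyosin, varied least, at 161, 149, 178 and 134. TPM1, the α-tropomyosin of fast fibers, stood at 146, 94.3, 162 and 57.3, in the order of MYL1. TPM1 and TPM2 are close in sequence, and reads that the counting could split between them were not checked. NEB, nebulin, the protein that runs along the thin filament, stood at 29.7 (29.3 to 30.1), 23.7 (23.5 to 24.0), 53.3 (52.6 to 54.0) and 37.2 (36.7 to 37.8). On this base both tenotomy sections were above both healthy sections. Without mitochondrial UMIs NEB stood at 58.5, 46.7, 80.5 and 56.9, and the 16-week section was below the fresh healthy section. LMOD2, a leiomodin that elongates thin filaments, was highest at 16 weeks (2.04) and lowest in the fresh healthy section (0.879). KLHL40 and KLHL41, which stabilize nebulin and other thin filament proteins, stayed between 0.583 and 1.03 in all sections.

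Of the Z-disc and M-band genes, ACTN2, the α-actinin of all striated fibers, stood at 12, 17.3, 12.7 and 11.8, highest in the stored healthy section. MYOM1, myomesin, which ties myosin filaments together at the M-band, stood at 0.893 and 0.755 in the healthy sections and 1.63 and 1.59 in the tenotomy sections, without overlap of their intervals. FLNC, filamin C, which binds Z-disc proteins and the membrane, stood at 3.56 (3.42 to 3.70) in the fresh healthy section and at 0.636, 1.13 and 1.12 in the stored ones. XIRP1, an actin-binding protein known from injured and remodeling muscle, showed the same pattern at few counts, with 155 UMIs or 0.221 per 10000 in the fresh healthy section and 0.0270 to 0.0464 in the others. DES (desmin), MYOT (myotilin), LDB3, XIRP2, SMPX, PDLIM3 and PDLIM5 lay within a factor of 3 of their own lowest section.

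**Figure D2:**
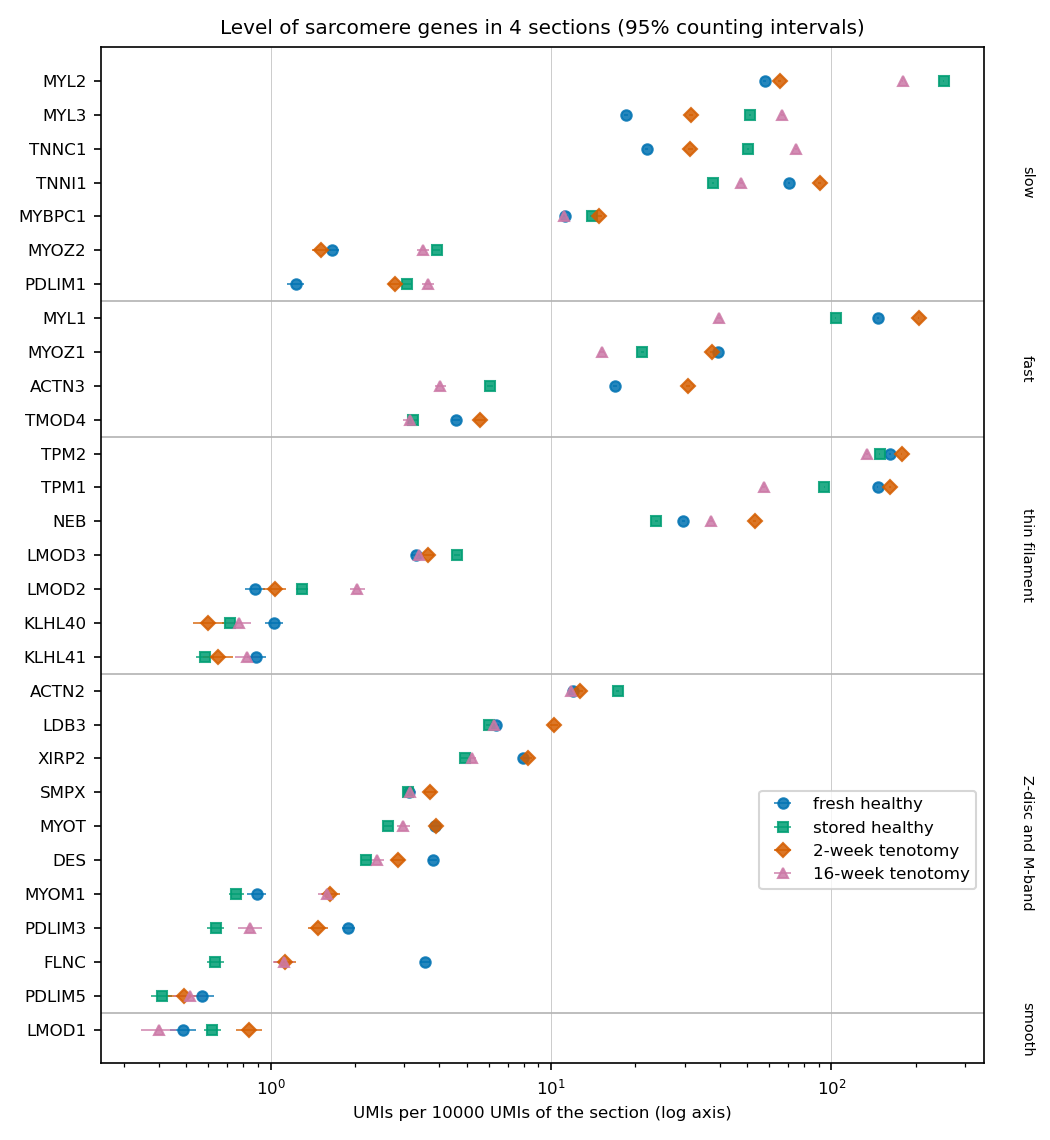
Level of the 29 genes with at least 200 UMIs in at least 1 section, in UMIs per 10000 UMIs of the section on a log axis, with points for the 4 sections and bars for exact Poisson 95% intervals, grouped by role. MYL2 spans 57.7 to 252, TPM2 only 134 to 178, and FLNC in the fresh healthy section (3.56) stands away from the other 3 sections.

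Against the stored healthy section, a member was called higher or lower at 2 weeks where the log2 ratio of levels was at least 1 in size and both sections together held at least 200 UMIs. Of 30 members that passed this minimum, 6 were called higher and 2 lower, while of all 2366 genes that passed it 18.2% were called higher and 1.39% lower. The median log2 ratio was 0.41 over these members and 0.51 over all genes. The higher members were ACTN3 (log2 ratio 2.34, interval 2.30 to 2.38), TMOD1 (1.77, 1.37 to 2.17, on 113 and 102 UMIs), TNNI1 (1.26), PDLIM3 (1.22), NEB (1.17) and MYOM1 (1.11). The lower members were MYL2, at -1.94 (-1.96 to -1.93), and MYOZ2, at -1.36 (-1.49 to -1.24), both slow genes, and MYL3 (-0.70) and TNNC1 (-0.68) lay below 0 too. Set against the fresh healthy section instead, PDLIM3 was lower at 2 weeks (1.48 against 1.90 per 10000) and MYL2 higher (65.4 against 57.7). On this base the other called members kept their side. Without mitochondrial UMIs, MYL2 was lower at 2 weeks than in the fresh healthy section (98.8 against 113.8), and so was TNNI1 (137.1 against 139.2). By role, the fast genes had a median of 0.91 (4 tested), the Z-disc and M-band genes 0.66 (10) and the slow genes -0.68 (7, TNNI1 at 1.26 among them). The call depended on the base. Without mitochondrial UMIs, and likewise with the median gene set to 0, 2 members were higher and 4 lower, and per myosin UMI 0 were higher and 17 lower. Each of these bases moved the log2 ratios of all genes by the same amount (-1.66 for the base per myosin UMI). The shares of all genes called were not counted on these bases, here and below. ACTN3 stayed above 0 on each base (0.68 per myosin UMI, the smallest), and MYL2 and MYOZ2 stayed below 0 on each, while TNNI1, PDLIM3, NEB and MYOM1 lay at -0.40, -0.44, -0.49 and -0.55 per myosin UMI.

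At 16 weeks against the same section, 31 members passed the minimum, and 3 were called higher and 1 lower, beside 37.1% higher and 1.76% lower of 2560 genes. The median was 0.10 over members and 0.77 over all genes, and 4 of 31 members lay above the median of all genes. The lower member was MYL1, at -1.38 (-1.40 to -1.36), and it was followed by TPM1 (-0.72) and LMOD1 (-0.63). The higher members were PDLIM4 (1.62, interval 1.26 to 1.98), MYL9, the regulatory light chain of smooth muscle (1.39, 1.01 to 1.77), and MYOM1 (1.07, 0.93 to 1.21). PDLIM4 had 144 UMIs at 16 weeks and 124 in the stored healthy section, and MYL9 had 119 and 120. LMOD1, in the same smooth muscle and non-muscle group as PDLIM4 and MYL9, lay on the other side (-0.63), so the group had no common direction. The levels of the smooth muscle and the fibroblast marker lists were higher at 16 weeks (4.98 against 1.90 and 75.9 against 39.0). With the median gene set to 0, no member was called higher and 9 were called lower. MYL1 lay between -2.15 and -1.38 over the bases, whereas NEB (0.65), TNNC1 (0.57), MYL3 (0.38) and TNNI1 (0.34) lay below 0 with the median gene at 0, TNNI1 also without mitochondrial UMIs and per myosin UMI.

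Storage and animal differed together between the healthy sections and cannot be told apart. Of 30 members tested, 5 were called higher and 4 lower in the stored than in the fresh section, beside 6.74% and 6.53% of 2449 genes, and the medians were -0.40 and -0.05. The 5 higher members were all in the slow group: MYL2 (2.12, interval 2.11 to 2.14), MYL3 (1.47), PDLIM1 (1.32), MYOZ2 (1.24) and TNNC1 (1.2). The lower ones were FLNC (-2.48, -2.60 to -2.37), PDLIM3 (-1.57), ACTN3 (-1.48) and TMOD1 (-1.01). These 9 kept their sign on each of the other bases.

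Between the tenotomy sections, which also came from different animals, 29 members were tested at 16 weeks against 2 weeks. There were 4 members called higher (MYL2 1.45, TNNC1 1.25, MYOZ2 1.2 and MYL3 1.09, all slow genes) and 5 called lower (ACTN3 -2.94, MYL1 -2.37, TPM1 -1.5, MYOZ1 -1.31 and LMOD1 -1.06), beside 14.2% and 4.87% of 2176 genes. The median was -0.25 over members and 0.27 over all genes. With the median gene set to 0 there were 1 and 8, and per myosin UMI 15 and 2. Per myosin UMI, MYOZ1 lay at 0.0006, LMOD1 at 0.25, and ACTN3 and MYL1 still at -1.62 and -1.05. The comparisons share sections (the stored healthy section enters 3 of the 4), so they are not independent of each other.

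Inside each section, slow-rich spots were set against fast-rich spots. The classes rest on MYH1, MYH4 and MYH7, none of which is a member. In the fresh healthy section, 6 of 29 members were called higher in slow-rich spots and 5 lower (3.34% and 5.50% of all genes tested). In the stored healthy section there were 7 and 4 of 29 (7.40% and 2.47%), at 2 weeks 9 and 5 of 28 (3.80% and 10.7%), and at 16 weeks 5 and 4 of 27 (3.98% and 1.99%). The member medians were 0.05, 0.07, 0.22 and 0.17 and those of all genes -0.01, 0.25, -0.04 and 0.17. The members thus split to both sides rather than shifting together. Of the 27 members tested in all 4 sections, 9 had an interval above 0 in each section and 6 an interval below 0 in each. The same was not counted over all genes, so these counts do not show whether members differed from other genes.

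The members called 2-fold higher in slow-rich spots of all 4 sections were TNNC1, MYL2, MYL3, MYOZ2 and LMOD2. TNNC1 had log2 ratios of 2.50, 1.83, 2.22 and 1.67 in the fresh healthy, stored healthy, 2-week and 16-week sections, with levels of 85.1 in slow-rich against 15.0 in fast-rich spots of the fresh healthy section and 101 against 31.6 at 16 weeks. MYL2 had ratios of 2.28, 1.89, 2.03 and 1.31. In the stored healthy section its level was 418 in slow-rich and 112 in fast-rich spots, and at 16 weeks 230 and 92.8. MYL3 lay between 1.51 and 2.27 and MYOZ2 between 1.24 and 2.40. LMOD2, which carries no fiber type in its name, lay between 1.45 and 1.88, and the related LMOD3 lay between -0.12 and 0.00. PDLIM1 passed 2-fold in 3 sections and stood at 0.68 at 16 weeks. KLHL40 passed it in the stored healthy section (1.05) and at 2 weeks (1.23, on 17 UMIs in slow-rich spots), and lay at 0.19 in fresh healthy muscle and -0.31 at 16 weeks. SMPX, a small protein of the costamere, MYBPC1 and ACTN2 were also above 0 in each section, mostly under 2-fold (ACTN2 0.52 to 0.74, MYBPC1 0.41 to 0.77).

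The members called 2-fold lower in slow-rich spots of all 4 sections were ACTN3, MYL1 and TPM1. ACTN3 had log2 ratios of -1.76, -3.40, -2.80 and -3.35 in the same order of sections, and its level in the stored healthy section was 1.13 in slow-rich and 12 in fast-rich spots. MYL1 had -1.23, -1.80, -2.53 and -1.77, with 45.7 against 159 in the stored healthy section and 38.3 against 222 at 2 weeks. TPM1 lay between -1.80 and -1.2. LMOD1, a leiomodin of smooth muscle, was 2-fold lower in slow-rich spots of the fresh healthy (-1.22) and 2-week (-1.52) sections, on 3 and 4 UMIs in the slow-rich spots, and the interval in fresh healthy muscle (-3.72 to 0.12) reached above 0. MYOZ1 passed 2-fold in 3 sections and stood at -0.80 in the fresh healthy section. TPM2 was lower in slow-rich spots of each section by a small amount (-0.44 to -0.26).

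TNNI1 went against its name. It was lower in slow-rich than in fast-rich spots of all 4 sections, with log2 ratios of -0.34 (-0.44 to -0.25), -0.73 (-0.76 to -0.70), -0.61 (-0.71 to -0.51) and -0.36 (-0.42 to -0.30). In the stored healthy section it stood at 28.2 in slow-rich and 46.8 in fast-rich spots. TNNC1, the other measured subunit assigned to slow troponin, lay on the opposite side in each section. Whether reads of the fast gene TNNI2, which had no feature of that name, reached the TNNI1 feature was not tested.

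**Figure D3:**
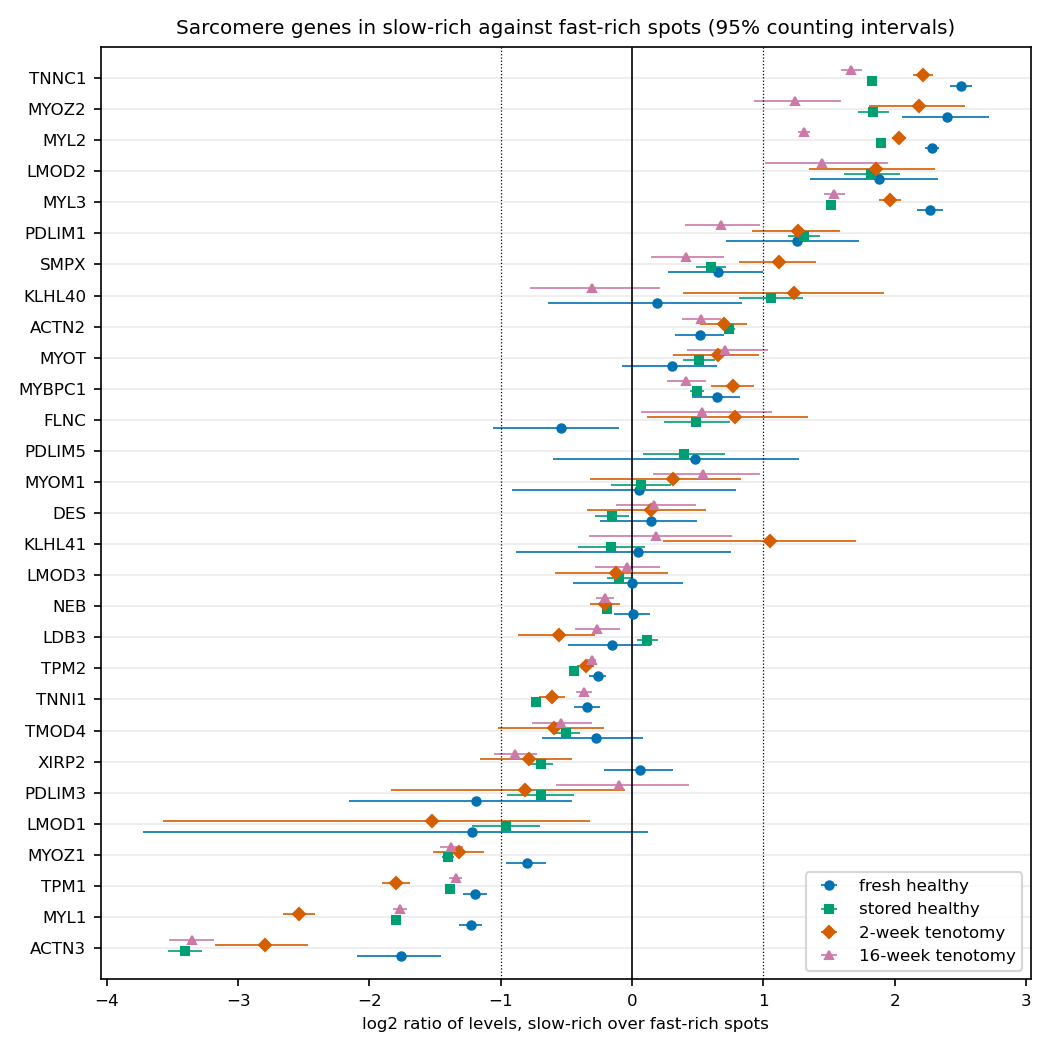
Log2 ratio of the level in slow-rich to that in fast-rich spots for 29 genes in each of the 4 sections, with exact conditional 95% intervals and dotted lines at 2-fold. TNNC1, MYL2, MYL3, MYOZ2 and LMOD2 lie beyond 2-fold on the slow side in all sections and ACTN3, MYL1 and TPM1 on the fast side, while TNNI1 lies between -0.73 and -0.34.

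The order of the members by this ratio was much the same from section to section. Across the 27 to 29 members that a pair of sections had in common, Spearman's rho of the ratios was between 0.83 (fresh healthy and 16-week) and 0.96 (stored healthy and 2-week), a description across genes, which are not independent. Depth and other cells were not equal in the classes. In the stored healthy section the fibroblast list stood at 59.7 in slow-rich and 26.5 in fast-rich spots, and at 2 weeks at 48.9 and 132. It stood at 14.1 and 12.7 in fresh healthy muscle and at 52.1 and 50.03 at 16 weeks. The part of these other cells in the ratios was not tested. The median spot had 5009 and 3866.5 UMIs in slow-rich and fast-rich spots of the fresh healthy section, and 3550 and 3447 at 16 weeks.

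Over finer steps of the MYH7 share, the levels of these genes differed at each step. In the stored healthy section, MYL2 stood at 88.0 in the 100 spots with under 10% MYH7, at 113, 163, 233 and 293 in the next 4 bins (10 to 30%, 30 to 50%, 50 to 70% and 70 to 90%), and at 478 in the 515 spots with 90% or more. MYL1 went the other way, from 187 through 158, 129, 103 and 77.3 to 30.1. ACTN3 stood at 18.6 in the lowest and at 0.475 in the highest bin, and TNNC1 at 17.6 and 90.5. Each of these genes had its extremes at the ends of the range. TPM2 (184 to 122) and NEB (29.4 to 21.3) covered a far narrower range over the same bins.

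**Figure D4:**
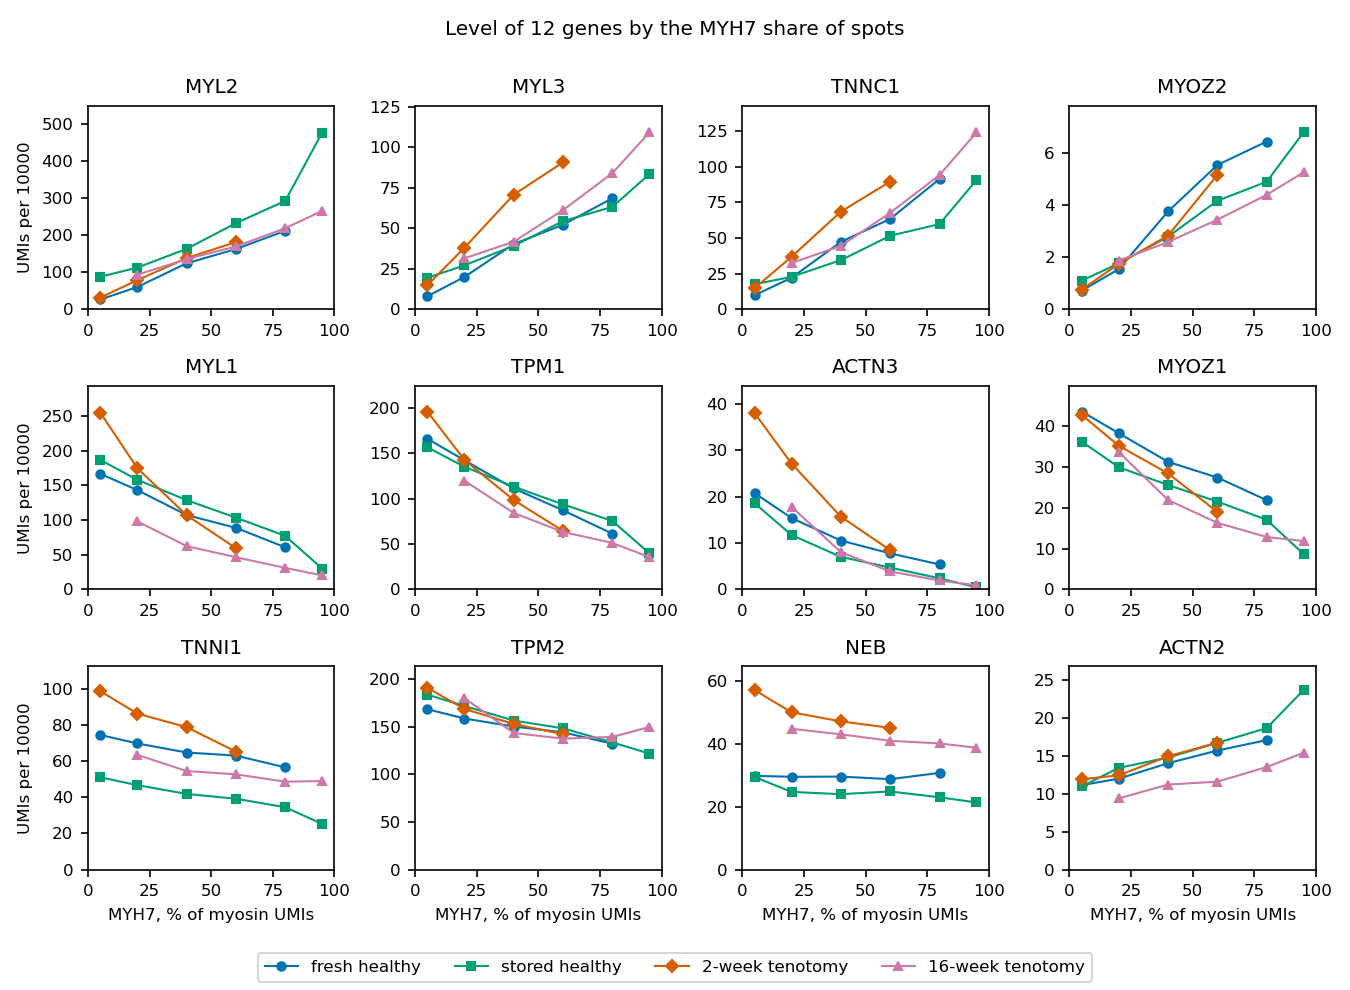
Level of 12 genes (y axis, UMIs per 10000, from 0) against the MYH7 share of spots (x axis, middle of 6 bins), 1 line per section, with bins of fewer than 20 spots left out. MYL2, MYL3, TNNC1 and MYOZ2 climb with the share and MYL1, TPM1, ACTN3 and MYOZ1 descend in each section. The NEB lines change less than those of these genes and differ in height (stored healthy 29.4 to 21.3, 2-week 57.1 to 45.1).

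For 2 of the 8 listed isoform pairs, both genes had a feature. The slow gene MYL3 made up 11.2% of the MYL3 and MYL1 UMIs in fresh healthy muscle, 33.2% in stored healthy muscle, 13.4% at 2 weeks and 62.8% (62.3 to 63.2, Clopper-Pearson) at 16 weeks. In slow-rich spots the shares were 48.3%, 62.7%, 71.5% and 75.8%, and in fast-rich spots 7.64%, 14.5%, 9.98% and 24.0%. The 16-week section was thus the highest in both classes. MYOZ2 made up 4.04%, 15.6%, 3.88% and 18.8% of the MYOZ2 and MYOZ1 UMIs. Its share in slow-rich spots was 19.8%, 35.1%, 24.9% and 26.5%, and in fast-rich spots 2.62%, 5.42%, 2.86% and 5.53%. For this pair the 16-week section was the highest over all spots but lay below the stored healthy section in slow-rich spots. A share is read between sections or classes, since both genes of a pair may be captured unequally.

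The sections were then compared within a fiber class, since they held slow-rich and fast-rich spots in different numbers. At 2 weeks, 4 of 29 members were called higher than in the stored healthy section in fast-rich spots and 1 lower (20.9% and 0.896% of all genes tested). They were ACTN3 (1.49, 33.5 against 12 per 10000), MYOM1 (1.19), NEB (1.12, 54.3 against 25.0) and PDLIM3 (1.05), and MYL2 on the lower side (-1.12, 51.6 against 112). In fast-rich spots of the fresh healthy section, PDLIM3 stood at 2.02, above the 1.54 at 2 weeks, and MYL2 at 40.8, below its 2-week level. ACTN3 (18.6), MYOM1 (0.853) and NEB (29.7) stood below their 2-week levels there. TNNI1 lay at 0.998, just under the limit (93.5 against 46.8). MYOZ2 (-0.58) and LMOD3 (-0.34) had the next lowest ratios. Per myosin UMI, ACTN3, MYOM1, NEB and PDLIM3 lay at -0.08, -0.38, -0.45 and -0.52, and TNNI1 at -0.57. The myosin level of fast-rich spots was 609 at 2 weeks and 205 in the stored healthy section.

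In slow-rich spots, of which the 2-week section had 23, 7 of 29 members were higher and 0 lower (11.0% of all genes higher, and 55 of 1099 lower). The largest ratios were those of ACTN3 (2.09, 4.78 against 1.13), MYOM1 (1.43) and FLNC (1.26), and KLHL41, TNNI1, NEB and SMPX lay between 1.0 and 1.25. At 2 weeks these rested on few UMIs for ACTN3 (68), MYOM1 (28), FLNC (25) and KLHL41 (18). In slow-rich spots of the fresh healthy section, ACTN3 (5.45) and FLNC (2.50) stood above their 2-week levels, and the other called members below theirs. MYL2 had the lowest ratio (-0.98, 211 against 418), before LMOD1 (-0.45) and LMOD3 (-0.36). In slow-rich spots of the fresh healthy section MYL2 stood at 198, below the 2-week level. Without mitochondrial UMIs, MYL2 and TNNI1 at 2 weeks lay below the fresh healthy section in this class. At 2 weeks against stored healthy muscle they lay at -1.11 and 0.998, and in stored against fresh healthy muscle at 0.93 and -1.17. Per myosin UMI, ACTN3 (1.08), MYOM1 (0.42), FLNC (0.25), TNNI1 (0.11) and NEB (0.09) stayed above 0 in this class, and SMPX lay at -0.0066.

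At 16 weeks, 1 of 28 members was called higher in fast-rich spots than in the stored healthy section and 0 lower (17.3% and 1.88% of all genes), and in slow-rich spots 1 of 29 and 0 (16.5% and 1.06%). The called members were KLHL40 in fast-rich spots (1.01, interval 0.48 to 1.47) and MYOM1 in slow-rich spots (1.40, 1.2 to 1.60). The KLHL40 level there was 0.987 at 16 weeks, 0.496 in the stored and 1.01 in the fresh healthy section. The MYOM1 level was 1.96, 0.742 and 0.854 in that order, so only MYOM1 stood above both healthy sections. The KLHL40 call was lost without mitochondrial UMIs (0.72), with the median gene at 0 (0.62), per myosin UMI (0.35) and with class limits of 80% and 20%. The MYOM1 call was lost with the median gene at 0 (0.98) and per myosin UMI (0.997). MYL1, the only member called lower over all spots, had ratios of -0.70 (97.6 against 159) in fast-rich and -0.67 (28.7 against 45.7) in slow-rich spots, about the same in both and smaller than the -1.38 over all spots. ACTN3 was below 0 over all spots (-0.59) and above 0 within fast-rich (0.54) and slow-rich (0.59) spots, though at -0.12 in fast-rich spots per myosin UMI. Its 16-week levels of 17.3 in fast-rich and 1.70 in slow-rich spots were below those of the fresh healthy section (18.6 and 5.45). MYL2 was lower in slow-rich spots (-0.86, 230 against 418) and less so in fast-rich spots (-0.28, 92.8 against 112). In the fresh healthy section MYL2 stood at 198 in slow-rich and 40.8 in fast-rich spots, below both 16-week levels. ACTN2 was lower in both (-0.45 and -0.66). LMOD3 (-0.33) was among the lowest in fast-rich spots and PDLIM3 (0.91) among the highest in slow-rich spots. Their 16-week levels there were 3.74 and 0.864, against 3.32 and 0.854 in the fresh healthy section. Without mitochondrial UMIs this order turned for both. LMOD3 lay at -0.61 at 16 weeks against stored and at 0.54 in stored against fresh healthy muscle. PDLIM3 lay at 0.66 and -1.09 in that order. NEB (0.87 and 0.85) and MYOM1 (0.92 and 1.40) were above 0 in both classes on each base.

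**Figure D5:**
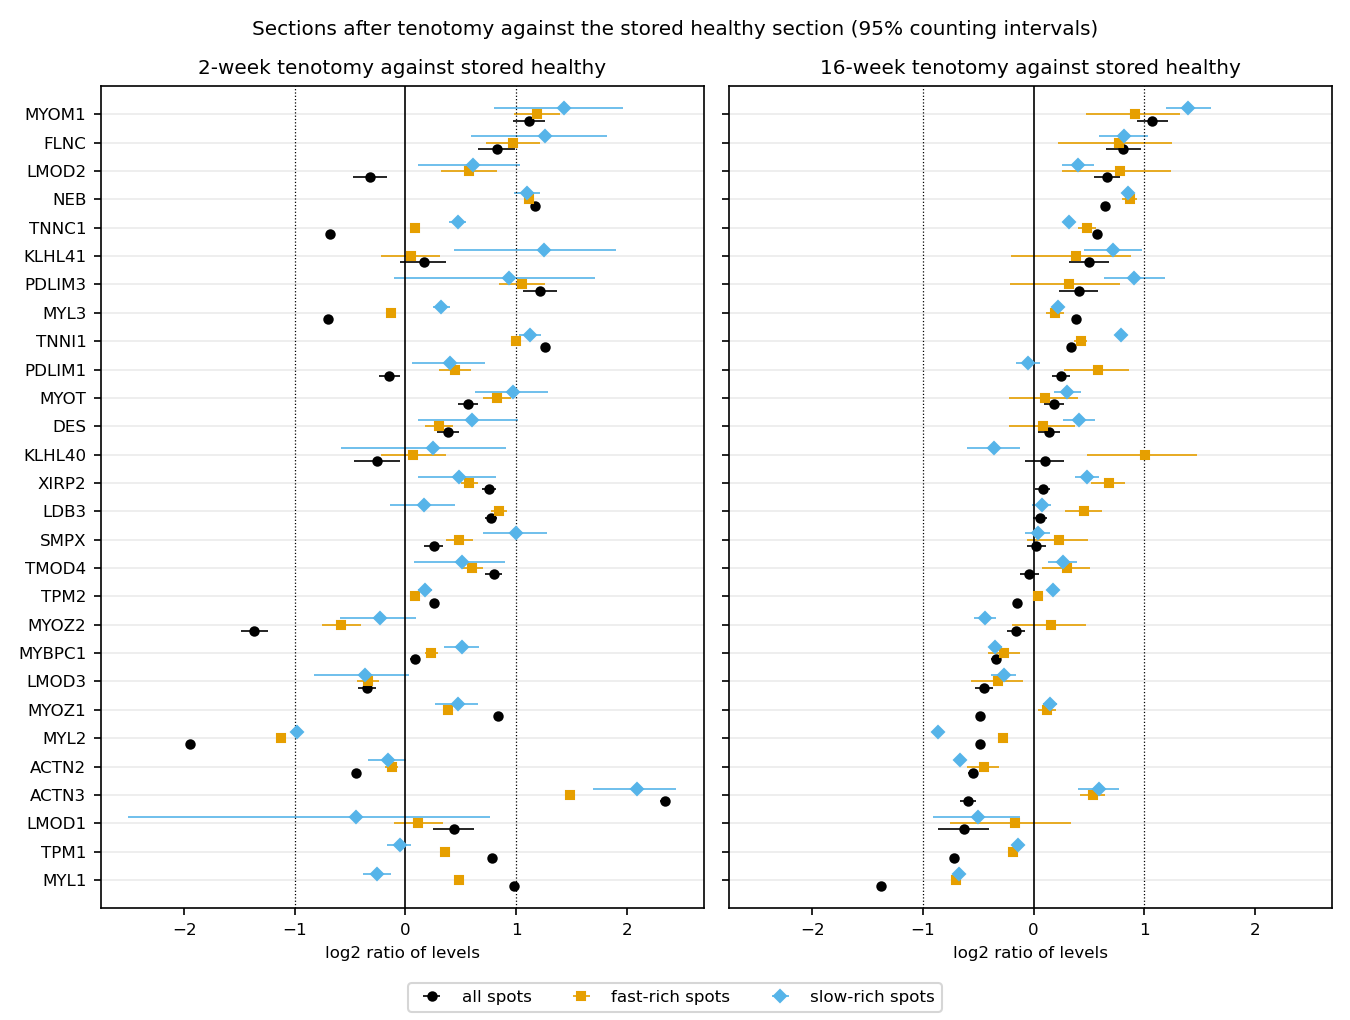
Log2 ratio of levels in the 2-week section (left) and the 16-week section (right) to the stored healthy section for 28 genes, over all spots, fast-rich spots and slow-rich spots, with exact conditional 95% intervals and dotted lines at 2-fold. At 16 weeks ACTN3 lies at -0.59 over all spots but at 0.54 and 0.59 within the classes, and at 2 weeks MYL2 moves from -1.94 over all spots to -1.12 and -0.98 within them.

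Because slow-rich spots had a median MYH7 share of 95.8% in the stored healthy section and 83.3% at 16 weeks, the sections were also compared at matched shares, in bins with at least 20 spots in each section and at least 50 UMIs of the gene in both together. These bins were chosen after the data were seen. Shares were matched only to the width of a bin and could differ inside it. At 95 to 100% MYH7 there were 419 spots in the stored healthy section and 43 at 16 weeks. At 90 to 95% there were 96 and 105. The part of such differences in the ratios was not tested. At 16 weeks, the interval of MYL1 lay below 0 in 5 of 5 bins (-1.31 to -0.57). In the bin of 50 to 70% MYH7, its level was 46.5 in 255 spots at 16 weeks and 103 in 369 spots of the stored healthy section. MYL2 (-0.84 to -0.27), ACTN2 (-0.62 to -0.40), TPM1 (-0.57 to -0.16) and MYBPC1 (-0.38 to -0.24) also lay below 0 in 5 of 5 bins. NEB (0.72 to 0.86), MYOM1 (0.70 to 1.58), FLNC (0.62 to 1.01), TNNI1 (0.38 to 0.95), LMOD2 (0.39 to 0.93), TNNC1 (0.37 to 0.66) and MYL3 (0.09 to 0.41) lay above 0 in 5 of 5. In fast-rich spots at 16 weeks, FLNC (0.895 against 3.68) and TNNI1 (62.8 against 72.5) stood below the fresh healthy section. NEB, MYOM1, LMOD2, TNNC1 and MYL3 stood above it. Shares were not matched there, with a median MYH7 share of 23.6% at 16 weeks and 7.36% in the fresh healthy section. In slow-rich spots LMOD2 stood at 2.65 at 16 weeks and 2.63 in the fresh healthy section. At matched shares, LMOD2 in stored against fresh healthy muscle had ratios of -0.88 to -0.35, with intervals below 0 in 4 of 5 bins. TNNC1 and MYL3 had no uniform sign there. ACTN3 had no uniform sign, with 3 bins above and 2 below 0. The slow genes thus did not move as a block at 16 weeks: per 10000 UMIs and within these bins, MYL2 and MYBPC1 were below and TNNC1 and MYL3 above the stored healthy section. TNNI1, listed with the slow genes but lower in slow-rich spots of each section, was above it too. The bins were run on this base only, and within the classes the upper side depended on the base. In slow-rich spots MYL3 went from 0.22 to -0.02 without mitochondrial UMIs, -0.19 with the median gene at 0 and -0.18 per myosin UMI. TNNC1 there went from 0.32 to -0.09 with the median gene at 0 and -0.08 per myosin UMI, and LMOD2 from 0.40 to -0.01 with the median gene at 0. In fast-rich spots MYL3 was below 0 on all 3 other bases (-0.09, -0.19 and -0.46), and TNNC1 (-0.18) and TNNI1 (-0.23) were below 0 per myosin UMI. MYL2 and MYBPC1 were below 0 in both classes on each base. Against the fresh healthy section, the stored healthy section itself had MYL2 above 0 in 5 of 5 bins (0.39 to 1.73).

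At 2 weeks the shares could be matched in 4 bins, again only to the width of a bin. Under 5% MYH7 there were 202 spots at 2 weeks and 13 in the stored healthy section. At 5 to 10% there were 250 and 87. ACTN3 (0.85 to 1.21), MYOM1 (1.04 to 1.37), NEB (0.86 to 1.02) and TNNI1 (0.74 to 0.95) lay above 0 in 4 of 4. So did MYOT (0.68 to 1.18), LDB3 (0.62 to 0.93), SMPX (0.53 to 0.86), TMOD4 (0.37 to 0.52) and MYBPC1 (0.20 to 0.79). MYL2 (-1.46 to -0.24) and LMOD3 (-0.67 to -0.35) lay below 0 in 4 of 4. In the stored against the fresh healthy section, both lay above 0 in 5 of 5 bins. These bins too were run per 10000 UMIs only, and within fast-rich spots ACTN3, MYOM1, NEB and TNNI1 were below 0 per myosin UMI, as given above. So were MYOT (-0.74), LDB3 (-0.72), SMPX (-1.08), TMOD4 (-0.97) and MYBPC1 (-1.335). MYBPC1 was also below 0 without mitochondrial UMIs (-0.195), and SMPX with the median gene at 0 (-0.08). In that class 0 of 29 members stayed above 0 on each base. MYOT stood there at 3.72 at 2 weeks, 2.10 in the stored and 3.59 in the fresh healthy section. Without mitochondrial UMIs, MYOT lay at 0.40 at 2 weeks against stored and at -0.74 in stored against fresh healthy muscle. In the bin of 10 to 30% MYH7, NEB stood at 50.02 in 274 spots at 2 weeks and at 24.7 in 614 spots of the stored healthy section. MYL1 was above the stored healthy section in the 2 bins under 30% and below it in the 2 bins from 30 to 70%, with ratios from 0.45 to -0.80.

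The healthy pair was compared in the same way. In fast-rich spots, 2 of 29 members were called higher and 3 lower in the stored than in the fresh section (2.92% and 6.59% of all genes). These were MYL2 (1.46) and MYL3 (1.05), and FLNC (-2.79, 0.531 against 3.68), PDLIM3 (-1.43) and KLHL40 (-1.02), and PDLIM1 (0.84) followed the higher ones. In slow-rich spots, which numbered 31 in the fresh section, 1 was higher, MYL2 (1.07), and 6 were lower, among them ACTN3 (-2.28), FLNC (-1.76) and XIRP2 (-1.23), beside 14.9% and 4.47% of all genes. LMOD1 (0.91, on 3 UMIs in the fresh section) and PDLIM1 (0.89) followed MYL2. At matched shares, FLNC (-2.85 to -1.84), ACTN3 (-1.18 to -0.16), MYOT (-1.17 to -0.61), DES (-1.12 to -0.50), TNNI1 (-0.71 to -0.54) and MYOZ1 (-0.36 to -0.27) lay below 0 in 5 of 5 bins. MYL2 (0.39 to 1.73), LMOD3 (0.49 to 0.65) and MYL1 (0.14 to 0.34) lay above 0 in 5 of 5. Between the tenotomy sections, 0 members of 28 were higher and 1 lower in fast-rich spots at 16 weeks, MYL1 (-1.18, before ACTN3 at -0.95 and PDLIM3 at -0.73), beside 3.58% and 5.96% of all genes, and KLHL40 (0.93), MYL2 (0.85) and MYOZ2 (0.73) had the highest ratios. In slow-rich spots there were 0 and 1 of 27, ACTN3 (-1.5), beside 15.1% and 3.66%, and SMPX (-0.97) and MYBPC1 (-0.85) were next lowest. The highest ratios there were those of MYL2 (0.12) and LMOD3 (0.10), followed by XIRP2 at -0.0011.

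Spots with few UMIs of MYH1, MYH4 and MYH7, called myosin-poor, were set against the remaining spots of their section. MYH2 could not be counted, so these spots may hold this myosin. Among spots with at least 1000 UMIs, those with under 0.5% of UMIs from the 3 myosins numbered 82 of 1374 at 16 weeks and 36 of 2347 in the stored healthy section. The fresh healthy section had 9 and the 2-week section 0, and neither was compared. At 16 weeks, 25 of 28 members were lower in these spots and 0 higher, beside 11.0% and 31.7% of all genes, and the medians were -1.86 and 0.60. KLHL41 had no UMI among the 165962 UMIs of these spots against 0.872 per 10000 elsewhere, and so was at least 4.82-fold lower, reckoned with 3 UMIs. Of the members with UMIs there, MYOT (-3.24), LMOD2 (-3.00) and SMPX (-2.88) had the lowest ratios. The 3 members within 2-fold were the PDZ and LIM genes PDLIM1 (-0.46), PDLIM3 (-0.77) and PDLIM5 (-0.997, just inside the limit), and the intervals of PDLIM3 and PDLIM5 reached above 0. In the same spots the fibroblast list stood at 329 against 62.8, the macrophage list at 19.5 against 3.08, the smooth muscle list at 12.4 against 4.57, the endothelial list at 9.52 against 2.63, the adipocyte list at 1.39 against 0.780 and the regenerating fiber list at 5.97 against 2.53.

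In the myosin-poor spots of the stored healthy section, 4 of 29 members were lower and 0 higher, beside 5.53% and 7.43% of all genes: TNNC1 (-1.98), MYOZ2 (-1.79), MYL2 (-1.54) and MYL3 (-1.52), all slow genes. With a myosin limit of 1%, TNNC1 (-1.12) was the 1 member still called, and MYL2 (-0.98), MYOZ2 (-0.95) and MYL3 (-0.88) were not. LMOD1 (0.59), XIRP2 (0.37) and PDLIM5 (0.34) had the highest ratios, each with an interval that reached below 0 except XIRP2. MYL1 had a ratio of 0.05, and TPM1 stood at 110 against 94.2 per 10000. The fibroblast list stood at 64.2 against 38.5 and the smooth muscle list at 10.9 against 1.79. The fast muscle list stood at 64.2 against 141 and the slow muscle list at 25.1 against 118. Both muscle lists include myosins by which the spots were picked. Whether these spots held less muscle or fibers with MYH2 was not tested.

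A list of 40 other sarcomere genes, of which 31 had a feature, gives the setting. It holds the myosin heavy chains, actins, MYL4, MYBPH and the stress and titin-linked genes around the Z-disc. At 2 weeks against the stored healthy section, 4 of 24 tested were called higher and 3 lower, beside 18.2% and 1.39% of all genes. MYH4, the heavy chain of the fastest fibers (7.42), and MYH1 (2.51) were at the top. The LIM protein CSRP3 (-2.18) and the ankyrin repeat protein ANKRD2 (-1.42) were at the bottom. At 16 weeks, 4 of 24 were higher and 2 lower, beside 37.1% and 1.76% of all genes. The ends were MYL4 (3.26) and MYBPH (2.94), and ANKRD1 (-2.01) and MYH4 (-1.38). In the stored against the fresh healthy section there were 5 and 3 of 23, beside 6.74% and 6.53% of all genes. The ends were cardiac α-actin ACTC1 (3.55) and MYH8 (2.56), and ANKRD1 (-1.92) and the small heat shock protein HSPB1 (-1.52). Between the tenotomy sections, 10 of 22 were higher at 16 weeks and 6 lower, beside 14.2% and 4.87% of all genes. The medians were 0.77 for these genes and -0.25 for the members.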

How the data were processed

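UMIs were measured in 4 Visium 3′ sections, 1 per condition, and grouped by the labels. The authors aligned images in Loupe Browser, counted UMIs with Space Ranger 1.2.0 against OryCun2.0 and its Ensembl genes, and deposited raw counts for each gene in each spot under tissue. All spots and genes were used. The 37 mitochondrial genes were recognized by neighboring identifiers.

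Levels were UMIs per 10000 UMIs, with exact Poisson 95% intervals. Log2 ratios used 0.5 added UMI and exact conditional intervals. A gene was called at 2-fold if both groups together held 200 UMIs. With 1 section per condition no test was run. Intervals cover counting error only. The members, role groups and marker lists were chosen with earlier results of these data known. Named were the members of isoform pairs, the top 3 and bottom 3 members by ratio in each comparison, and examples of role groups. FLNC and LDB3 by spot class and the genes given at matched shares were named after their values were seen. Doublets were not called, because spots hold several cells.

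Alternatives covered the base of levels, minimum counts, spots used, class limits and the fold. No annotation of OryCun2.0 was used, so overlapping genes and near-identical copies were not checked and no positions or sequences are given. The ratios were run on simulated Poisson counts with planted changes. Such counts hold no variation between spots, sections or animals, so the run checks the calculation only. Scripts used matplotlib 3.10.9, pandas 2.3.3, scipy 1.17.1 and numpy 2.4.6 under Python 3.11.15.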

Additional observations from a re-analysis of the deposited data

Results flagged for a closer look

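Some effects pointed in opposite directions in different sections or spot classes. None of these differences was tested, since each value comes from 1 section.

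Between slow-rich and fast-rich spots, FLNC had a log2 ratio of -0.54 in fresh healthy muscle, against 0.49 in stored healthy muscle, 0.78 at 2 weeks and 0.53 at 16 weeks. LDB3, a Z-disc PDZ and LIM protein, had -0.15 in fresh healthy muscle, 0.12 in stored healthy muscle, -0.56 at 2 weeks and -0.27 at 16 weeks.

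Between sections, 5 genes had opposite signs in the 2 spot classes with both counting intervals off 0. Only members were screened, and the share over all genes was not counted, so the count does not show whether members differed from other genes. Slow-rich spots numbered 23 at 2 weeks and 31 in the fresh healthy section. Members with opposite signs of which an interval held 0 are not listed. MYL1 lay above the stored healthy section at 2 weeks in fast-rich spots (0.48) and below it in slow-rich spots (-0.25), whereas MYL3 lay below in fast-rich (-0.13) and above in slow-rich spots (0.32). KLHL40 at 16 weeks against the stored healthy section had 1.01 in fast-rich and -0.36 in slow-rich spots. In the stored against the fresh healthy section, TPM2 had 0.059 in fast-rich and -0.12 in slow-rich spots, and MYL1 had 0.018 and -0.55. At 16 weeks against 2 weeks, MYL3 had 0.33 in fast-rich and -0.10 in slow-rich spots, and TNNC1 had 0.40 and -0.15.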

How the results depend on the processing

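No paired analysis was possible because each condition had 1 section. Counts of members called are given as higher and lower, with the count as reported in parentheses, and their cause was not tested beyond what each setting does by construction. The shares of all genes called were not counted under these settings, so the counts do not show whether members differed from other genes. At 2 weeks against the stored healthy section (6 and 2) there were 2 and 4 without mitochondrial UMIs, 2 and 4 with the median gene at 0, 0 and 17 per myosin UMI, and 13 and 4 at 1.5-fold. At 16 weeks against the same section (3 and 1), 0 were higher and 9 lower with the median gene at 0, 2 were lower without mitochondrial UMIs and 2 per myosin UMI, 5, 1 and 6 were higher with a minimum of 50, 500 and 1 UMIs, and 6 and 4 were called at 1.5-fold. For the stored against the fresh healthy section (5 and 4), 10 were lower at 1.5-fold. At 16 against 2 weeks (4 and 5), there were 1 and 8 with the median gene at 0 and 15 and 2 per myosin UMI, 7 were higher with a minimum of 1 UMI and 10 lower at 1.5-fold. Between spot classes, members lower in slow-rich spots numbered 1 (5) in the fresh healthy section and 3 (5) at 2 weeks with classes of equal size at the ends of the MYH7 share, and 8 (4) in the stored healthy section and 9 (5) at 2 weeks at 1.5-fold. In fast-rich spots at 2 weeks against stored healthy (4 and 1) there were 1 and 2 without mitochondrial UMIs and 0 and 18 per myosin UMI. At 16 weeks (1 and 0), 0 were higher without mitochondrial UMIs, 0 per myosin UMI and 0 with limits of 80% and 20%, and 2 were lower per myosin UMI. At 16 against 2 weeks (0 and 1), 1 was higher without mitochondrial UMIs, and 9 were higher and 0 lower per myosin UMI. In slow-rich spots at 2 weeks against stored healthy (7 and 0) there were 4 and 1 without mitochondrial UMIs and 1 and 7 per myosin UMI. At 16 weeks (1 and 0), 1 was lower without mitochondrial UMIs, 0 and 3 were called per myosin UMI, and 2 were higher with limits of 80% and 20%. In the healthy pair (1 and 6), 0 were higher without mitochondrial UMIs. At 16 against 2 weeks (0 and 1), 2 were lower without mitochondrial UMIs and 0 per myosin UMI. In myosin-poor spots of the stored healthy section, 1 (4) was lower with a limit of 1%. The share of MYL3 at 16 weeks was 63.5% (62.8%) in spots with at least 20 myosin UMIs.

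Signs of called members turned per myosin UMI at 2 weeks against stored healthy for TNNI1 (-0.40), PDLIM3 (-0.44), NEB (-0.49) and MYOM1 (-0.55) over all spots, for ACTN3 (-0.084), MYOM1 (-0.38), NEB (-0.45) and PDLIM3 (-0.52) in fast-rich spots and for SMPX (-0.0066) in slow-rich spots. At 16 against 2 weeks they turned for MYOZ1 (0.0006) and LMOD1 (0.25). Without mitochondrial UMIs or with the median gene at 0, no called member between sections turned its sign. Limits of 80% and 20% were not run between classes of the fresh healthy and 2-week sections, nor for the 3 comparisons of slow-rich spots that use them, since 8 and 6 slow-rich spots remained. Depth limits the 11 members under 200 UMIs and the 23 slow-rich spots at 2 weeks.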
